A study of Homo sapiens with 24 samples.

Results

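The 283 regions described here were broad stretches of histone H3 lysine 27 acetylation (H3K27ac). In one human endothelial line, TeloHAEC, they ranked among the 500 with the most bases under peaks. They overlapped none of the 500 such regions of another line, Eahy926. They were taken from 24326 stitched TeloHAEC regions. In each line, autosomal bases under peaks with a −log10 q of 2 or more in at least 2 of the 4 control ChIP files were kept. Intervals close to each other were joined at the stitching distance customary for super-enhancers, and the joined regions were ranked by covered bases. The domains were thus chosen by the covered bases of the control libraries of both lines. The other 217 of the TeloHAEC top 500 overlapped the Eahy926 top 500, and 280 Eahy926 regions overlapped none of the TeloHAEC top 500.

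The study mapped H3K27ac by ChIP-seq, as part of work on coronary artery disease genes in endothelial cells. TeloHAEC are human aortic endothelial cells immortalized with telomerase and kept in a medium that contains VEGF. Eahy926 is a human endothelial hybrid line kept in DMEM, which lacks it. Both lines were parental, without a CRISPR perturbation. Each was left untreated or given IL1b or TNFa, inflammatory cytokines, at 10 ng/ml for 24 h. In the libraries labelled VEGF, the factor was left out of the TeloHAEC medium and added to the Eahy926 medium, so the change was opposite in the 2 lines. There were 2 ChIP libraries per group, numbered as biological replicates, in 10 groups. Controls came from 2 sets, numbered 0 and 1 in the library titles and called library days 0 and 1 here. All treated libraries came from day 1. Another 4 libraries came from input chromatin.

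H3K27ac is laid down by the acetyltransferases p300 and CBP at active promoters and enhancers. Clusters of acetylated enhancers that span long stretches, often called super-enhancers or stretch enhancers, tend to lie at genes tied to the identity of a cell type. In endothelial cells, ETS family factors such as ERG and FLI1 bind many such enhancers.

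The libraries differed in depth between days. The 4 day 0 ChIP libraries held 18387194 to 21135399 filtered tags of 30 bases, and the 16 day 1 libraries held 3843129 to 7122108 tags of 40 bases. Peaks covered 33.0 to 39.2 Mb of the autosomes on day 0 and 12.97 to 29.5 Mb on day 1. Gene positions on hg19 were written from general knowledge and checked only for chromosome and length, so gene names here are provisional. All 9 endothelial markers with a usable position, among them VWF, TEK, CDH5 and ERG, had a peak in every TeloHAEC library. In Eahy926, 8 of the 9 did, and EMCN, which encodes endomucin, had none in any library. The epithelial genes EPCAM, CDH1, ELF3 and NKX2-1 had no peak in any library of either line. KRT18 and KRT19 had one in all. Across the 4 input libraries, at most 2 of the 283 regions held a peak, over at most 597 bp.

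Sequences are shown for 4 genes whose start lay in one of these domains, to set starts with a peak in more TeloHAEC than Eahy926 libraries beside one with a peak in all. At ADGRF5 the start had a peak in few TeloHAEC libraries. They are RefSeq promoters of GRCh38.p14, from 250 bases before to 50 after the start. Capitals mark AGGAAG, a core of ETS factor sites, and TGANTCA, the AP-1 site, on either strand.
LRRC8B: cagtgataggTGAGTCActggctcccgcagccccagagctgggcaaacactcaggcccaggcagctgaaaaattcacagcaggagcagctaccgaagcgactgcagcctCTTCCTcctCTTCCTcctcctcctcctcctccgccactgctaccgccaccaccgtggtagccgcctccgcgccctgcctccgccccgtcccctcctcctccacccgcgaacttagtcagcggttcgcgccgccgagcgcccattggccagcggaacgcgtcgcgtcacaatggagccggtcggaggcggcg
B3GNT5: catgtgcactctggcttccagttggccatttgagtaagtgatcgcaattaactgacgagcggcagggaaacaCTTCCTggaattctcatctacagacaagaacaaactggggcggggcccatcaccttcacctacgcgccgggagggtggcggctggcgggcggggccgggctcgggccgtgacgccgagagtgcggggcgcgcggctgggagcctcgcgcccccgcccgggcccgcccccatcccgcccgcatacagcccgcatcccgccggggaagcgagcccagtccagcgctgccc
ADGRF5: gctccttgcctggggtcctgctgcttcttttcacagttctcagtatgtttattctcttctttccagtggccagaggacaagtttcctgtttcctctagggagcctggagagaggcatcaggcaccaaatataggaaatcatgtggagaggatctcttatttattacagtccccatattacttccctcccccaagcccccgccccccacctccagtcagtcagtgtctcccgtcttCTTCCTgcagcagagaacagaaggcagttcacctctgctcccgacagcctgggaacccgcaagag
KLF6: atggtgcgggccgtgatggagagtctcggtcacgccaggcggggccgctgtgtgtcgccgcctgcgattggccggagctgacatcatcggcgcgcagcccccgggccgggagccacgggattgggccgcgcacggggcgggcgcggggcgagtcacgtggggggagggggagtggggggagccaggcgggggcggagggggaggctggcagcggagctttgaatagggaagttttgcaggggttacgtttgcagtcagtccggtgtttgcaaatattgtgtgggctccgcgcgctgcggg

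The LRRC8B promoter held 2 ETS cores and 1 AP-1 site, those of B3GNT5 and ADGRF5 held 1 ETS core each, and KLF6 held neither. Of 35116 RefSeq promoters of this length, 33.6% held the ETS core and 7.71% the AP-1 site. Of 45 promoters of genes that started in one of the domains, 18 held the ETS core and 1 the AP-1 site. A peak lay within 500 bp of the LRRC8B start in 9 of 10 TeloHAEC and 2 of 10 Eahy926 libraries. At B3GNT5 these counts were 10 and 2, at ADGRF5 3 and 0, and at KLF6 10 and 10.

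The domains were sparse chains of peaks rather than solid blocks. They spanned 15.1 to 95.1 kb, with a median of 36.8 kb, and held 4 to 23 covered intervals, with a median of 9. Covered bases ran from 5.24 to 14.02 kb, with a median of 6.29 kb, so a median of 17.8% of a domain's length lay under peaks. The 217 TeloHAEC domains shared with Eahy926 had a median span of 36.1 kb and a median covered length of 6.83 kb. These values follow from the ranking and carry no test. The last region inside the TeloHAEC top 500 had 5.24 kb covered, and the first outside had 5.238 kb. The 5 domains just inside that limit had 5.24 to 5.269 kb, and the 5 regions just outside that overlapped no Eahy926 top 500 region had 5.212 to 5.238 kb. In Eahy926 the values at the limit were 4.693 and 4.688 kb.

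The label "particular to TeloHAEC" held for some of the domains and not for most. In the controls, Eahy926 coverage of a domain, scaled to the library total, had a median of 64.8% of the TeloHAEC coverage, from 0 to 167%. It was 50% or more at 194 domains and above 100% at 17. It was under 25% at 38, of which 6 had no covered base in any Eahy926 control. By rank, 73 domains overlapped a region of the Eahy926 top 1000, a further 65 reached only its top 2000, and 12 overlapped no stitched Eahy926 region. The 5 highest ratios were 167% at chr3:112337738-112375117, 147% at chr17:67565368-67605813, 125% at HK1, a hexokinase, 118% at ABCC4, a nucleotide exporter, and 110% at ADAM9, a metalloprotease. These control values chose the domains and are given as a description.

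Which regions were chosen followed the deep day 0 controls. With the day 0 controls alone, the rule gave 295 domains, which overlapped 247 of the 283 (87.3%). With the day 1 controls alone it gave 327, which overlapped 81 (28.6%). In both cases each of the 2 files of a line had to cover a base, a stricter condition than 2 of 4. Leaving out day 0 control 1 or 2 of TeloHAEC left 158 or 155 of the 283 overlapped, against 269 and 261 without day 1 control 1 or 2. Here 2 of the remaining TeloHAEC files had to cover a base, and Eahy926 kept its 4 files.

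The domains took a larger share of the peaks of every treated TeloHAEC library than of any treated Eahy926 library. In the 6 treated TeloHAEC libraries, which the rule did not use, 4.91% ± 0.240 (SD, n = 6) of autosomal covered bases lay in them, from 4.68 to 5.35%. In the 6 treated Eahy926 libraries the share was 3.26% ± 0.0761 (SD, n = 6), from 3.18 to 3.37%. The groups did not overlap. In the controls, which chose the domains, it was 5.22% ± 0.128 and 3.15% ± 0.112 (SD, n = 4 each).

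**Figure D1:**
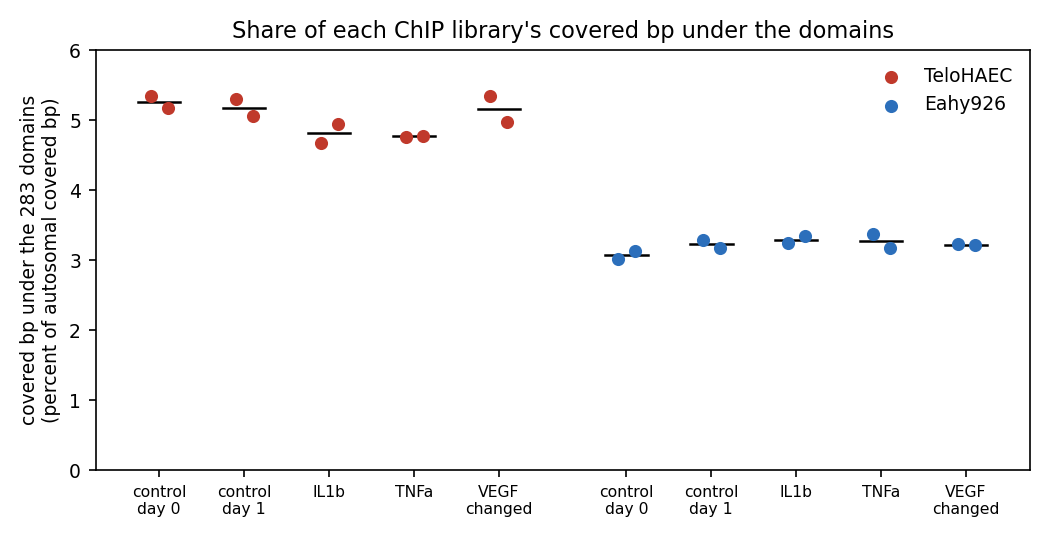
Percent of each ChIP library's autosomal covered bp that lay in the 283 domains (y axis), by line, treatment and library day (x axis). Points are libraries and lines are the means of 2; TeloHAEC libraries lay between 4.68 and 5.35% and Eahy926 libraries between 3.02 and 3.37%.

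Most domains had no place in the TeloHAEC top 500 when it was drawn from the 2 libraries of a treatment. In the TeloHAEC libraries with IL1b, ranked in the same way over bases covered in both replicates, 126 of the 283 (44.5%) overlapped the top 500. With TNFa 125 did, and without VEGF 94. In Eahy926 the counts were 24 with IL1b and 27 with TNFa. With VEGF added, the opposite change, it was 24. The 217 shared domains overlapped the TeloHAEC top 500 in 131, 138 and 110 cases. All 3 treated TeloHAEC top 500 lists held 67 of the 283 domains, and none held 117. Both replicates had to cover a base here, a stricter condition than 2 of 4, and these libraries had fewer tags than day 0. The matching count for the untreated day 1 controls is not given, so no effect of treatment can be read from these counts. Under the full rule, again with both files required, the domains from those controls alone overlapped 81 of the 283.

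The difference between the lines was tested in the cytokine-treated libraries, 4 per line (IL1b and TNFa, 2 each). Values are covered kb scaled to the library total, and differences are of log2(scaled covered bp + 500), from limma with Benjamini-Hochberg adjustment over 13714 tested regions. The tested regions were stitched TeloHAEC regions, plus stitched Eahy926 regions that overlapped none of them, so the 2 lines did not enter alike. Of the 280 regions found only in the Eahy926 top 500, 9 were tested under their own boundaries. All 283 domains passed the filter on low coverage, as their choice by TeloHAEC coverage made likely. At an adjusted p under 0.05, 152 of the 283 were higher in TeloHAEC, against 25% of all tested regions, and 13 were lower, against 28.5%. The other 118 did not pass. The 283 include 15 domains at 0 in all 4 of these Eahy926 libraries, for which no p-value is given below. The counts of calls were made with these 15 included. The median difference was 0.45 over the domains and −0.13 over all tested regions. Of the 217 shared domains, 23 were higher and 71 lower. The libraries were independent of the rule, but the lines were the same, so the direction follows in part from the choice of domains.

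**Figure D2:**
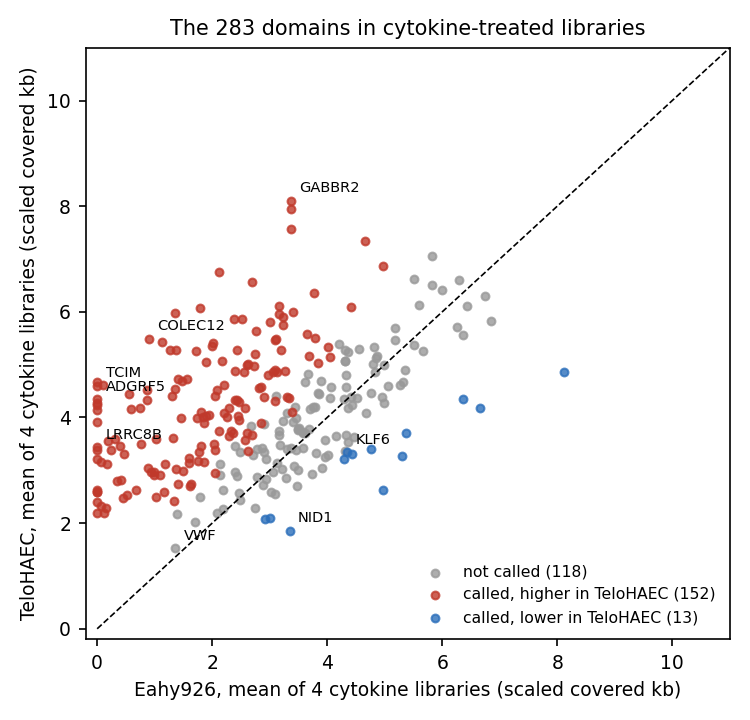
Mean scaled covered kb of each of the 283 domains in the 4 cytokine-treated Eahy926 libraries (x axis) and the 4 cytokine-treated TeloHAEC libraries (y axis). The dashed line marks equal coverage; red points are the 152 called higher in TeloHAEC, blue the 13 called lower and grey the 118 not called, and 15 domains lie at 0 on the x axis.

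The calls can be set beside the control ratio, which comes from the values that chose the domains and from the same lines, so their order is a description. All 38 domains with under 25% of the TeloHAEC control coverage in Eahy926 were called higher with cytokines, with a median difference of 2.46. Between 25 and 50%, 48 of 51 were called higher, with a median of 1.12. Between 50 and 75%, 53 of 96 were, with a median of 0.41. At 75% or more, 13 of 98 were higher and 13 lower, with a median of −0.03. The 15 domains at 0 in all 4 cytokine-treated Eahy926 libraries are counted in these classes, and their differences are set by the pseudocount.

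A small set of domains was present in TeloHAEC and listed at 0 in Eahy926. In all 10 Eahy926 libraries 6 domains had no covered base, and 15 had none in the 4 cytokine libraries. One of the 6 was the domain at ADGRF5 (chr6:46843296-46923407, hg19), which encodes an adhesion G protein-coupled receptor expressed in endothelium. Its scaled coverage was 4.40 and 4.50 kb with IL1b and 4.39 and 4.12 kb with TNFa in TeloHAEC. Every Eahy926 library was at 0, and the fitted log2 difference was 3.28. The domain passed the filter through TeloHAEC alone, where the rule had chosen it as high, so this is a description. Such a difference is set by the pseudocount, and ranged from 1.67 to 5.48 over the alternatives. A group at 0 in both libraries also adds no spread to the pooled error, so no p-value is given for domains at 0 in these libraries.

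DAPK1, which encodes a death-associated kinase, carried another of the 6 (chr9:90182264-90230953). It had 2.84 and 2.58 kb with IL1b and 4.15 and 3.30 kb with TNFa. The TeloHAEC libraries varied, but none came near 0. Another 2 of the 6 lay at chr4:5021419-5053820 and chr3:64893381-64915165, with cytokine means of 4.24 ± 0.58 and 4.27 ± 0.17 kb (SD, n = 4), and carry no gene name here.

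The 2 largest differences were next to each other on chromosome 8, at and beside TCIM, a transcriptional regulator. The TCIM domain had 4.46 and 5.11 kb with IL1b and 4.20 and 4.65 kb with TNFa in TeloHAEC, and 0 in the same Eahy926 libraries (fitted log2 difference 3.35). Unlike ADGRF5, it had 0.811 and 0.842 kb in the 2 deep day 0 Eahy926 controls. LRRC8B, a subunit of volume-regulated anion channels, gave the same picture, with 3.11 to 3.92 kb in the TeloHAEC cytokine libraries, 0 in those of Eahy926 and 0.575 and 0.373 kb in its day 0 controls. A value of 0 in the shallow libraries thus did not show that acetylation was absent.

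**Figure D3:**
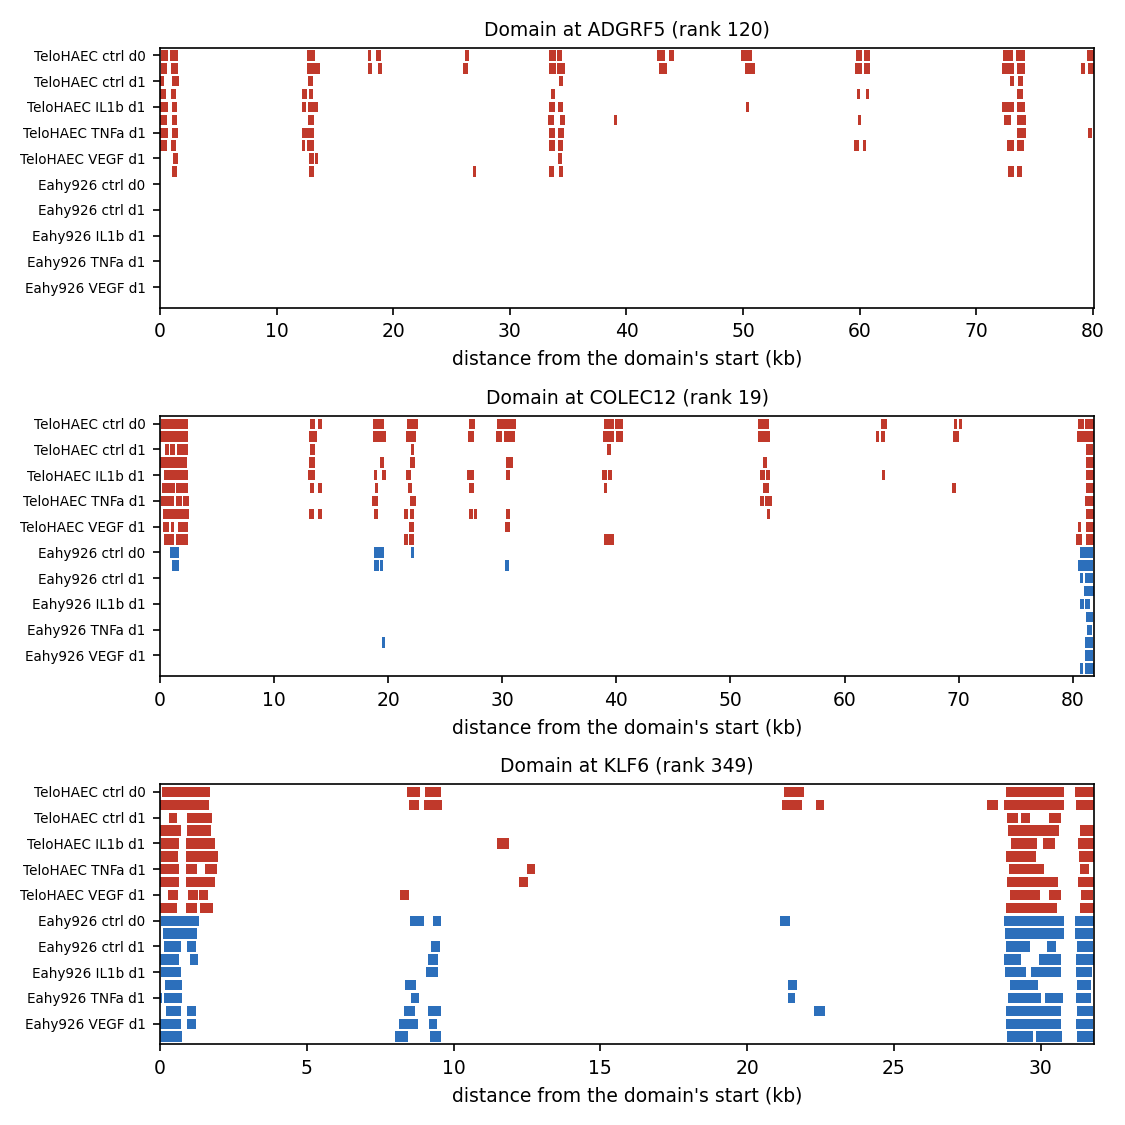
Peaks in the 20 ChIP libraries (rows, 2 per label, TeloHAEC red and Eahy926 blue) along 3 domains, with distance from the domain's start in kb on the x axis. The ADGRF5 domain is empty in Eahy926, COLEC12 keeps mainly the peak at its right end there, and KLF6 has peaks near both ends in both lines.

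Domains at genes of known endothelial roles fell in every class. COLEC12, a scavenger receptor of endothelium, had 2 neighbouring domains (chr18:394269-476146 and chr18:489117-525928). The longer had 5.98 and 5.89 kb with IL1b and 4.94 and 5.16 kb with TNFa in TeloHAEC, against 0.897 and 1.20 kb and 0.533 and 0.974 kb in Eahy926 (log2 difference 2.12 ± 0.13, adjusted p = 3.4e-09, limma). Neither group overlapped the other. PXDN, peroxidasin, which cross-links collagen IV, had a mean of 5.28 ± 0.58 kb against 1.26 ± 0.84 kb (SD, n = 4). FLT1, VEGF receptor 1, had 4.68 ± 0.51 against 1.48 ± 0.22 kb, and TEK, the angiopoietin receptor, 4.10 ± 0.20 against 1.81 ± 0.40 kb. All 3 were called higher, with log2 differences of 1.85, 1.39 and 1.01.

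Another 2 domains, at PLPP3 and JCAD, were at coronary artery disease loci and were picked after their values were seen. PLPP3 was called higher, and SMAD3, at another such locus, was lower in TeloHAEC. PLPP3, a lipid phosphate phosphatase (chr1:56922098-56983287), had 4.45 ± 0.56 kb in the TeloHAEC cytokine libraries and 0.557 ± 0.42 kb in those of Eahy926 (SD, n = 4; log2 difference 2.33 ± 0.28, adjusted p = 5.1e-06, limma). JCAD, a junctional protein (chr10:30316515-30352704), had 2.60 ± 0.22 kb against 0 in all 4. ABCG1, a cholesterol exporter, had 3.56 ± 0.43 against 0.185 ± 0.21 kb. ELMO1, which acts in Rac activation, had 2.62 ± 0.37 kb against 0. The rule had chosen JCAD and ELMO1 as high in TeloHAEC, and both were at 0 in these Eahy926 libraries. Their differences are set by the pseudocount, so their values are a description.

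Domains at other endothelial genes did not pass the test. VWF, von Willebrand factor (chr12:6161621-6203348), had 1.44 and 1.41 kb with IL1b and 1.83 and 1.43 kb with TNFa in TeloHAEC. In Eahy926 it had 1.34 and 1.56 kb and 0.976 and 1.57 kb, and the groups overlapped (log2 difference 0.13 ± 0.16, adjusted p = 0.51, limma). Its TeloHAEC day 0 controls had 4.21 and 3.65 kb. Those libraries were deeper and of another day, so no effect of the cytokines can be read from this gap. MEF2C, a MADS-box factor, gave 0.22 ± 0.19 (adjusted p = 0.33, limma), and the domain of THBD and CD93 gave 0.15 ± 0.12 (adjusted p = 0.29, limma).

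Among the 13 domains called lower in TeloHAEC with cytokines were those at SMAD3 and TGFBR2, of 12 TGF-beta and BMP genes with a usable position, and NID1, of 15 matrix genes. SMAD3, a transducer of TGF-beta signals and itself at a coronary artery disease locus (chr15:67397287-67443595), had 4.45 and 4.41 kb with IL1b and 3.40 and 5.18 kb with TNFa in TeloHAEC. In Eahy926 it had 6.60 and 6.55 kb and 6.49 and 5.80 kb, all above TeloHAEC (log2 difference −0.51 ± 0.13, adjusted p = 0.0052, limma). TGFBR2, the type II receptor, gave −0.47 ± 0.10 (adjusted p = 0.0012, limma). NID1, nidogen of basement membranes, had 1.86 ± 0.30 against 3.34 ± 0.44 kb (SD, n = 4; log2 difference −0.71). FLI1, an ETS factor, gave −0.37 ± 0.13 and KLF6, a zinc finger factor, −0.33 ± 0.12. SEC14L1 gave −0.67 ± 0.10, and an unnamed domain at chr17:67565368-67605813 −0.61 ± 0.11. The lowest value, −0.82 ± 0.32 at chr3:112337738-112375117 (adjusted p = 0.041, limma), lost its call in 12 of 22 alternatives. With coverage not scaled to the library total, 201 of the 283 domains were called higher and none lower, so no lower call was kept without scaling. With an equal covered length taken from each library there were 13 lower calls. An equal number of top peaks gave 14, and a pseudocount of 2000 bp gave 17. There were 7 lower calls with stricter peaks, 4 in the libraries with VEGF changed, 7 without TeloHAEC IL1b replicate 1 and 8 without Eahy926 TNFa replicate 1. Over all tested regions, leaving out the scaling turned 3423 higher and 3913 lower calls into 5083 and 1644, and moved the median difference from −0.13 to 0.20.

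The most covered domain, at GABBR2 (chr9:101076945-101138319), a GABA-B receptor subunit, had 14.02 kb under peaks in the controls. It had 8.48 and 8.85 kb with IL1b and 8.48 and 6.61 kb with TNFa in TeloHAEC, against 2.70 and 2.99 kb and 4.06 and 3.73 kb in Eahy926 (log2 difference 1.16 ± 0.11, adjusted p = 3.3e-07, limma). Of the 10 most covered domains, 6 were called higher in TeloHAEC and none lower. Over all 283 domains 53.7% were higher and 4.59% lower, and over all tested regions 25 and 28.5%. Those at XXYLT1, CRIM1 and TRIO, and one at chr20:10521018-10586120 did not pass.

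Gene lists were compared with the domains by position. Of 13 endothelial identity factors with a usable position, FLI1 and MEF2C overlapped one of the 283 domains and ERG a shared one. Of 16 junction and surface genes, VWF, TEK and FLT1 overlapped one of the 283, and CDH5, ESAM and ENG a shared one. Of 12 TGF-beta and BMP genes, SMAD3 and TGFBR2 did, ACVRL1 lay in a shared domain and SMAD7 in a region found only in the Eahy926 top 500. Of 15 matrix genes NID1 did, SPARC, LAMA4 and LAMB1 were among those in shared domains, and COL8A1 and LOX lay in regions found only in the Eahy926 top 500. No gene of the 15 Notch and arterial, 6 YAP target or 11 inflammatory genes overlapped one of the 283. Nor did any epithelial, smooth muscle, fibroblast or leukocyte marker. NRP1 lay in a shared domain and ANKRD1 in a region found only in the Eahy926 top 500. Of the 283 domains 164 overlapped a named gene.

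The microRNA genes MIR132 and MIR212, known from endothelial and neuronal cells, lay within the domain at chr17:1933443-2006945, which also overlaps SMG6. Their main arms share a seed (bases 2 to 8, in capitals), which is why they are shown.
hsa-miR-132-3p: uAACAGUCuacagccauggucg
hsa-miR-212-3p: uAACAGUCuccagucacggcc
The domain had 4.16 and 4.28 kb with IL1b and 5.35 and 4.61 kb with TNFa in TeloHAEC, and 4.61 and 5.65 kb and 5.48 and 4.49 kb in Eahy926. The lines overlapped (log2 difference −0.12 ± 0.13, adjusted p = 0.41, limma).

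Some domains adjoined each other. There were 18 runs of domains less than 100 kb apart, which held 38 of the 283. The run with most covered bases was chr11:12132211-12262379, with 3 domains and 20.3 kb covered, all 3 called higher in TeloHAEC. Another 3 lay around SERPINB1 and SERPINB6, inhibitors of serine proteases, of which 2 were called higher. The share called higher was 53.7% over all 283 domains and 25% over all tested regions. Neighbouring domains are not independent. Chromosome 13 held 10 of the 283 domains and chromosome 21 held 5, or 3.53 and 1.77% of the domains, against 2.78 and 1.18% of all stitched TeloHAEC regions. None of the 280 regions found only in the Eahy926 top 500 lay on either. The share of all stitched Eahy926 regions on these chromosomes is not given, so this absence is only a description.

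The response of the domains to treatment was compared with the 2 day 1 TeloHAEC controls. Those controls took part in choosing the domains, which favours falls. With IL1b, 1 of the 283 was called higher, against 0.744% of tested regions, and none lower, against 0.481%; calls in either direction made up 1.23% of tested regions. At an unadjusted p under 0.05 there were 51 (18.02%), against 20.1% of tested regions. The median difference was −0.11 over the domains and −0.12 over all tested regions. With TNFa none was called, against 0.518% of tested regions, and 29 (10.2%) had an unadjusted p under 0.05, against 18.04%. Without VEGF none was called, against 0.642% of tested regions in either direction and 0.226% higher, and 22 (7.77%) had an unadjusted p under 0.05, against 13.2%, with a median difference of 0.00. IL1b against TNFa gave none, against 0.00729%, and none with an unadjusted p under 0.05, against 3.44%. The treatment comparisons share their controls.

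**Figure D4:**
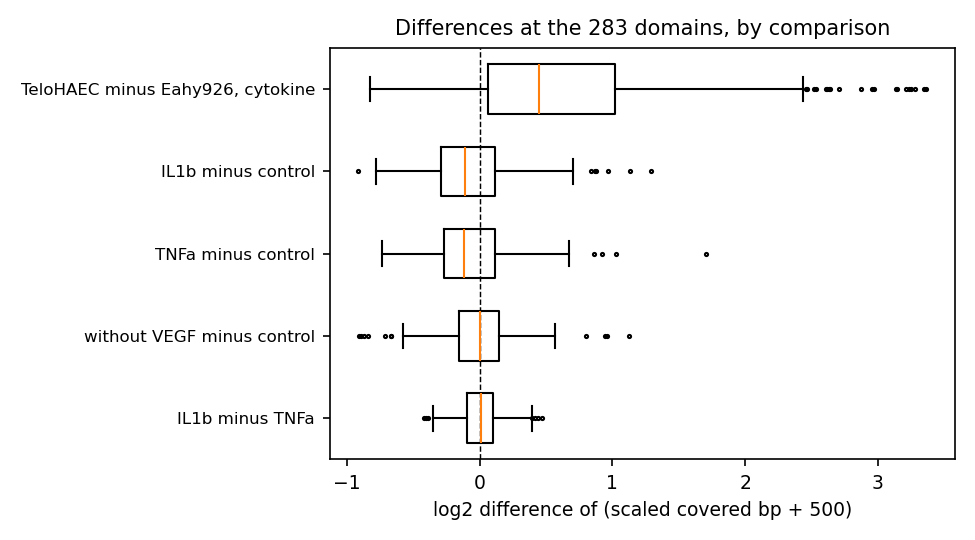
Log2 differences of (scaled covered bp + 500) at the 283 domains (x axis) in the 5 comparisons (rows). Boxes span the quartiles with the median as a line, whiskers reach 1.5 times the box, and points lie beyond; the line comparison has a median of 0.45 and the others lie between −0.12 and 0.01.

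These counts moved most with one control library, day 1 control 2 of TeloHAEC. Leaving it out leaves control 1, the library with the fewest tags. Calls then rose in both directions, over all tested regions as well as over the domains. Calls also rose without replicate 2 of the libraries lacking VEGF. With each compared library left out in turn, the median difference over the domains ran from −0.16 to −0.06 with IL1b. It ran from −0.13 to −0.09 with TNFa and from −0.05 to 0.04 without VEGF. In these fits the lone library is assumed to vary like the other groups. With coverage not scaled, 5 domains were called higher with IL1b, and the median of all tested regions moved from −0.12 to 0.27.

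The domain called with IL1b was at TANC1, a scaffold protein (chr2:159925873-159956447). It had 0.554 and 1.51 kb in the day 1 controls and 2.55 and 2.83 kb with IL1b (log2 difference 1.13 ± 0.25, adjusted p = 0.043, limma). It had 2.09 and 2.88 kb with TNFa and 2.64 and 2.70 kb without VEGF. All 3 treatments lay above the day 1 controls, but below the day 0 controls of 4.35 and 4.50 kb. The call was kept in 6 of 17 alternatives.

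The domain of THBD, thrombomodulin, and CD93, both endothelial surface proteins (chr20:23029361-23087103), had 10.5 and 7.82 kb in the day 1 controls. It had 5.67 and 5.25 kb with IL1b and 5.13 and 5.33 kb with TNFa, below both controls. The differences of −0.68 ± 0.17 and −0.74 ± 0.17 did not pass (adjusted p = 0.061 and 0.067, limma). Without VEGF it had 9.10 and 6.96 kb. The day 0 controls had 5.60 and 5.82 kb, near the cytokine values. This domain was singled out after its values were seen, as was PLPP3, which had 0.687 and 2.82 kb without VEGF against 3.34 and 3.05 kb in the day 1 controls (log2 difference −0.89 ± 0.39, adjusted p = 0.35, limma). FLT1 had 5.38 and 5.03 kb without VEGF and 4.37 and 5.76 kb in those controls, which overlapped.

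Counts of domains whose libraries did not overlap the controls were near the shares of all tested regions. With IL1b, 41 domains lay wholly above the day 1 controls, against 10.5% of tested regions, and 106 wholly below, against 32.3%. With TNFa 35 lay above, against 9.95%, and 100 below, against 31.9%. Without VEGF 31 lay above, against 10.0%, and 30 below, against 13.1%. As shares of the 283 these are 14.5 and 37.5%, 12.4 and 35.3%, and 10.95 and 10.6%.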

How the data were processed

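Reads were aligned to hg19 with Bowtie2 and peaks called with MACS2, per the submitters' processing notes; the version was 2.1.1.20160309, per the file headers. The deposited lists give for each library the peak length, the pileup signal, the −log10 p and −log10 q, and a fold enrichment ratio, all the authors' own values. Autosomal peaks (22 chromosomes) had to reach a −log10 q of 2, and summits of a shared interval were counted once. Covered bp per region were divided by the library total and multiplied by the mean total. Regions with at least 1000 scaled bp in 2 libraries were tested with limma 3.58.1 (R 4.3.3) on log2(scaled covered bp + 500), over 10 group means and 20 ChIP libraries, without a variance trend. The fit was tested on simulated data. Intervals and counts came from python 3.11.15 with pandas 2.3.3. Read counts per region were not analysed here.

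The domains and lists were chosen with earlier results of these data known. Domains were named by most covered bases, by rank limit, and as up to 5 non-overlapping calls per direction and test; other genes named were chosen after their values were seen. No hg19 annotation was used: 303 gene spans were written from general knowledge. All lay on RefSeq's chromosome, and the 262 whose length was within 5% of RefSeq's GRCh38.p14 were used. That check does not test the position, so gene names are provisional. Spans outside the lists were recalled after the domains' positions were seen. Marker genes were searched for peaks with 2 kb either side.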

Additional observations from a re-analysis of the deposited data

How the results depend on the processing

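The line difference with cytokines kept 141 to 201 called domains over the other settings tried, within 1.5 times of 165, and 148 to 159 with each library left out; the 13 lower calls among them ranged from 0 to 17 and from 7 to 13. Same-numbered libraries deviated together in 1 of 12 pairs of groups above 0.1 (r −0.09 to 0.25), so numbers were not taken as pairs; the replicate block gave 149 called domains for the line difference, 7 of them lower, and 0 for the treatments. For IL1b against control the 1 call became 3 with stricter peaks, 0 with the lists as deposited, 3 with an equal number of top peaks, 6 with an equal covered length, 5 unscaled, 5 with quantile scaling, 0 and 4 with pseudocounts of 100 and 2000 bp, 4 with no filter, 0 with the replicate block, 0 with the compared groups alone and 3 with a variance trend, which was added after seeing the data. For TNFa the count of 0 became 2, 2, 2, 3 and 3 with stricter peaks, equal number, equal length, no scaling and quantile scaling, 1 with a pseudocount of 2000 bp, 2 with no filter and 1 with the trend. Without VEGF it became 1 with a pseudocount of 2000 bp and 4 with controls of both days. IL1b against TNFa gave 2 with equal length. Leaving out a library gave 0 to 52 for IL1b, 0 to 40 for TNFa, 0 to 23 without VEGF and 0 for IL1b against TNFa. The number of domains was 163 from the top 250 and 510 from the top 1000, and 232 to 331 under the other settings, but stitching at 5 kb left 92 and 4 of 4 files 82 of the 283 overlapped. Over all tested regions, calls ranged from 0 to 862 for IL1b (168 as reported), 0 to 612 for TNFa (71), 0 to 492 without VEGF (88) and 0 to 153 for IL1b against TNFa (1) with all libraries, and reached 3352, 3129, 1725 and 4 with one left out; for the line difference they ranged from 4523 to 12060 (7336). The cause of these shifts was not tested. Peak lists limit precision: a region below the caller's threshold in a shallow library counts as 0.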
